A study of Drosophila melanogaster with 10 samples.

Results

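The comparison described here set male oenocytes that expressed the fru hairpin VDRC330035 against male oenocytes that expressed the fru hairpin of stock 31593, using 4 of the 10 libraries of the series and no control library in the test. The members were chosen by library label alone: the 2 libraries labelled VDRC330035 and the 2 labelled fru_Trip, which the labels tie to BDSC stock 31593. All 11732 genes that passed a filter on low counts, of 13986 listed, were tested. The VDRC330035-labelled flies carried prom-E800-Gal4 and Fru-RNAi (VDRC330035), the 31593-labelled flies carried prom-E800-Gal4 and Fru-RNAi (BDSC#31593), and the control flies, shown for level only, carried prom-E800-Gal4 with UAS-mCD8-GFP and no hairpin. Flies of every genotype grew at 25°C up to eclosion and spent the next 7 days at 29°C before dissection of their oenocytes. The driver is an oenocyte promoter fragment, so both hairpins were driven in the same cell type. The paper reports that fru knockdown lowered the GFP signal under a drug-inducible form of this driver. Driver output was not compared between the lines here. The VDRC330035 hairpin is a VSH construct at attP40, and the 31593 hairpin is a TRiP construct at attP2 in a y v background. Hairpin, vector, insertion site and genetic background differed together and cannot be told apart. Each line stands for 1 stock, and the number of animals in a library is not given in the sources used here.

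Oenocytes are large secretory cells under the abdominal cuticle that make cuticular hydrocarbons, among them the contact pheromones of males. Fatty acids are synthesised, elongated and desaturated in them, reduced to aldehydes and then decarbonylated by the cytochrome P450 Cyp4g1, which needs the reductase Cpr. fru encodes zinc-finger transcription factors best known for their male-specific forms in the nervous system. The comparison asks in which genes 2 hairpins against the same gene gave different levels.

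fru, on 3R at 18414273 to 18545586 (dm6 coordinates of the BDGP6.54 annotation), had 17.5 and 17.4 CPM (counts scaled to equal library totals after TMM normalization) in the VDRC330035-labelled libraries, against 23.6 and 24.4 CPM in the 31593-labelled libraries. The control libraries held 11.8 and 11.5 CPM. Both lines therefore stood above control for the gene that their hairpins target. That goes against the knockdown labels at the level of these counts only, and the libraries are named by their labels throughout. The paper measured knockdown by other means. It reports that RNAi removed the Fru protein signal, seen by antibody, from oenocytes. It also reports that the 2 stocks differed in strength, both by antibody and by quantitative PCR under a whole-body driver. Neither measurement was tested here. Between the lines fru was lower in the VDRC330035-labelled libraries by -0.46 on the log2 scale (SE 0.053), with an adjusted p of 0.000269 in edgeR's quasi-likelihood test. With scaling by library size alone the difference was -0.086 on the log2 scale, with an adjusted p of 0.192. In the authors' TMM-rescaled TPM, which weigh transcript length, fru had 3.66 and 3.55 in the VDRC330035-labelled libraries, 7.29 and 7.32 in the 31593-labelled libraries and 2.26 and 2.34 in control. The log2 difference between the lines was -1.02 on that scale. Only 3 of 7860 genes over 5 CPM, fru included, had a TPM difference at least as far below their count difference. Reads of the hairpin transgene itself, which carries fru sequence, were not separated from reads of the gene.

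The 4 libraries held between 24092148 and 46840805 counts. Replicates lay close together, with a common dispersion of 0.00775, and nothing in the labels says that the 2 replicates of a line came from separate crosses, so p-values measure the spread between these libraries only. The smallest two-sided p that exact permutation allows for 2 libraries against 2 is 0.333. Cyp4g1 alone took 2.05% and 2.04% of all counts in the VDRC330035-labelled libraries, 11.9% and 11.7% in the 31593-labelled libraries and 10.5% and 10.6% in control. TMM moved log2 fold changes by 0.37 relative to library size alone, under which the median of all genes was 0.39, or 0.24 with Cyp4g1 left out of the totals. A log2 fold change between -0.37 and 0 under TMM therefore changes sign with library size alone. Counts or medians with library size alone are given beside those of many lists, but not of all. Oenocyte markers were present in every library, with a summed level of 27549 and 27578 CPM in the VDRC330035-labelled libraries and 151266 and 148109 CPM in the 31593-labelled libraries, most of it Cyp4g1. Muscle markers summed to 6593 and 6494 CPM in the VDRC330035-labelled libraries, against 4636 and 4568 CPM in the 31593-labelled libraries, and 11 of 14 were higher and 2 lower. Hemocyte markers summed to 1311 and 1292 CPM, against 550.7 and 553.4 CPM, with 4 of 9 higher and 3 lower. Gut markers summed to 196.3 and 193.2 CPM in the VDRC330035-labelled libraries, but to 253.0 and 1267 CPM in replicates 1 and 2 of the 31593-labelled libraries. The median log2 fold change of the gut markers was -1.70. It was -2.53 with replicate 1 of the 31593-labelled libraries left out, and reversed to 0.98 with replicate 2 left out. No marker of these 4 lists was at 0 in all 4 libraries. The part of these other tissues in the results was not tested, and in bulk tissue fewer cells of a type and less RNA per cell cannot be told apart.

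The 2 lines differed across much of the transcriptome. Of 11732 genes, 6069 were called at an adjusted p under 0.05, which is 51.7%, with 3120 (26.6%) higher and 2949 (25.1%) lower in the VDRC330035-labelled libraries. Counts of list members under TMM are to be read beside these shares of all genes. With library size alone 7833 genes were called, 6663 higher and 1170 lower, so the share of higher calls was 51.4% under TMM and 85.1% without it. The median log2 fold change of all genes was 0.0185. Single values set beside a gene or list without a unit are log2 fold changes of this kind under TMM. The study's thresholds ask for a 4-fold change or more and, read here as adjusted, a p not above 0.001; 188 genes met both (differentially expressed genes or DEGs, 1.6%), 77 (0.656%) higher and 111 (0.946%) lower. Of these, 92 had under 10 CPM in the higher line. The DEGs were spread over the large chromosome arms, with 20 of 1880 genes tested on X, 32 of 2229 on 2L, 41 of 2429 on 2R, 46 of 2212 on 3L and 49 of 2876 on 3R. All 188 DEGs were also called in the same direction when any 1 of the 4 libraries was left out, and 106 stayed DEGs in each of these fits. The number of DEGs was 120 without replicate 1 and 119 without replicate 2 of the VDRC330035-labelled libraries, and 381 without replicate 1 of the 31593-labelled libraries, of which 278 were lower.

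**Figure D1:**
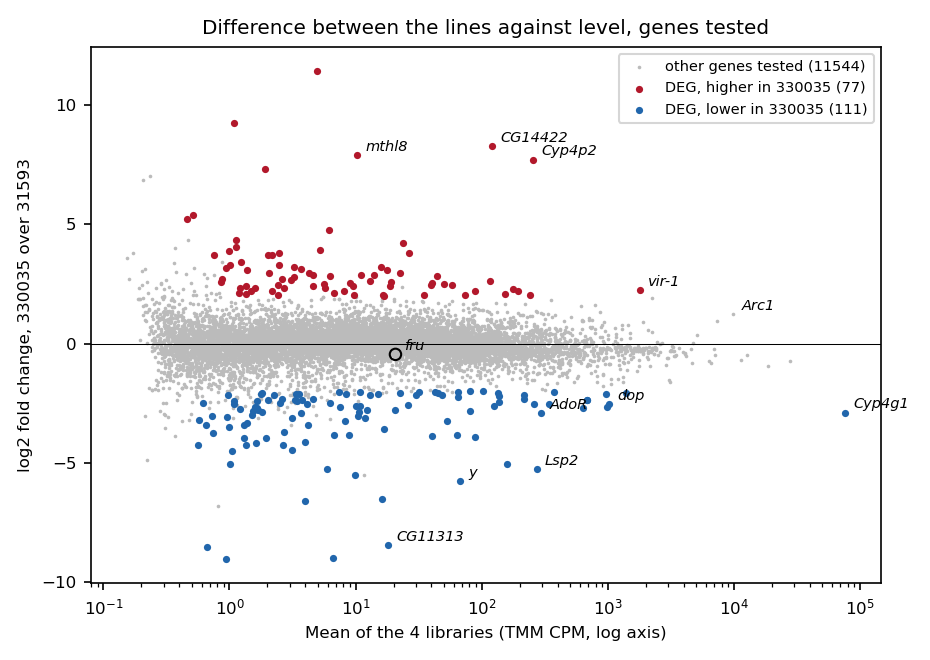
Mean level of each gene over the 4 libraries in TMM CPM (log x axis) against its log2 fold change, VDRC330035 over 31593 (y axis). Red points are the 77 DEGs higher in the VDRC330035-labelled libraries, blue points the 111 lower ones and grey points the other genes tested; fru is circled at -0.46, and Cyp4g1, the most abundant gene, lies at -2.90.

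Control was nearer to the 31593-labelled libraries for most higher DEGs, while the lower DEGs were divided. Among the 77 DEGs higher in the VDRC330035-labelled libraries, the control mean was nearer on the log2 scale to the 31593-labelled libraries for 67. Among the 111 lower DEGs it was nearer to the 31593-labelled libraries for 47 and to the VDRC330035-labelled libraries for 64. Over all DEGs 60.6% were nearer to the 31593-labelled libraries, beside 53.4% of all genes tested. That share of all genes was not taken for each direction. The control mean lay between the lines for 129 of 188 DEGs, but for 3595 of 11732 genes tested. With replicate 1 of the 31593-labelled libraries left out the share among DEGs was 37.8%, and with replicate 2 left out 53.2%.

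The largest rises, by a rule of level and separation between libraries that 36 higher DEGs met, began with genes near silence in the other line. CG14422, on X at 2943386 to 2944569, had 239.4 and 243.8 CPM in the VDRC330035-labelled libraries, against 1.08 and 0.377 CPM in the 31593-labelled libraries and 0.408 and 0.059 CPM in control. Its log2 fold change was 8.28 (SE 0.135). Cyp4p2, a cytochrome P450 gene that lies within the span of hig on 2R, had 514.4 and 504.3 CPM in the VDRC330035-labelled libraries and 3.25 and 1.32 CPM in the 31593-labelled libraries, a log2 fold change of 7.72 (SE 0.127). Control held 2.41 and 1.86 CPM of Cyp4p2. For both genes the libraries of the 31593 line and of control were low and only the VDRC330035-labelled libraries were high. mthl8, a G protein-coupled receptor of the Methuselah family, had 21.2 and 20.1 CPM against 0.0722 and 0.0941 CPM, with 1.00 and 0.767 CPM in control. Ect3, of the beta-galactosidase family, had 50.8 and 48.9 CPM against 3.50 and 3.72 CPM, with 2.67 and 2.60 CPM in control.

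The other 8 of the 12 largest rises were CG7763, CG18628, Drsl5, CG3397, CG11378, CecA1, CG4306 and CG15021, with log2 fold changes of 2.84 for CG15021 to 4.78 for CG7763. Drsl5 and CecA1 encode antimicrobial peptides. Control did not always side with the 31593 line: CG18628 had 45.1 and 46.0 CPM in the VDRC330035-labelled libraries, 3.10 and 1.70 CPM in the 31593-labelled libraries and 182.8 and 183.2 CPM in control. CG11378 and CG4306 were likewise above both lines in control, with 88.4 and 92.0 CPM and 35.6 and 36.7 CPM. Adjusted p-values of the 12 lay between 1.01e-08 and 1.1e-06. CG46312, named after its values were seen, had 863 counts in the VDRC330035-labelled libraries and 0 in the 31593-labelled libraries and in control, which makes it at least 154-fold higher with a floor of 3 counts over the 31593-labelled group.

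The largest falls met the same rule, as did 60 lower DEGs in all. castor (cas), a zinc-finger factor of the neuroblast temporal series, had 0.0522 and 0 CPM in the VDRC330035-labelled libraries, which is 2 counts in all, against 13.8 and 12.5 CPM and 648 counts in the 31593-labelled libraries. The ratio was 606-fold, with a 95% exact (Clopper-Pearson) counting interval of 167 to 5011, and intervals and floors cover counting error only. Control held 0.0371 and 0.0295 CPM of cas, so the 31593-labelled libraries were the high ones. CG11313 had 0.130 and 0.0753 CPM in the VDRC330035-labelled libraries against 36.1 and 35.7 CPM in the 31593-labelled libraries, with 0.186 and 0.295 CPM in control, a log2 fold change of -8.46 (SE 0.133). yellow (y), needed for dark cuticle pigment and present as a wild-type copy in the genotype of the 31593 stock, had 2.24 and 2.60 CPM, against 132.6 and 133.7 CPM, with 0.446 and 0.0885 CPM in control. Dscam4, a cell adhesion protein of the immunoglobulin superfamily, and Drgx, a homeobox factor, were also high in the 31593-labelled libraries alone, with log2 fold changes of -5.26 and -3.84.

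Lsp2, a storage protein of the fat body, had 24.0 and 5.55 CPM in the VDRC330035-labelled libraries, against 517.8 and 544.2 CPM in the 31593-labelled libraries and 55.5 and 46.6 CPM in control. In proportion to their level, its VDRC330035-labelled libraries differed from each other more than its 31593-labelled ones did. Of 9 fat body markers tested, 2 were higher and 4 lower, with a summed level of 2464 and 2375 CPM against 3111 and 3124 CPM. CDase, the neutral ceramidase, had 8.66 and 7.79 CPM against 120.4 and 117.1 CPM, and control lay between the lines at 61.6 and 61.9 CPM. The remaining falls were CG7298, CG4734, yip7, Hsp70Bbb and Hsp70Ba. yip7, a gut serine protease and itself one of the gut markers, had 10.04 and 11.5 CPM against 79.0 and 251.4 CPM. Like the sum of the gut markers, which includes it, yip7 was higher in replicate 2 than in replicate 1 of the 31593-labelled libraries. CG4734 also differed between the 31593-labelled replicates, at 8.88 and 29.8 CPM, against 0.522 and 0.320 CPM in the VDRC330035-labelled libraries. Adjusted p-values of the 12 ran to 0.000566.

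**Figure D2:**
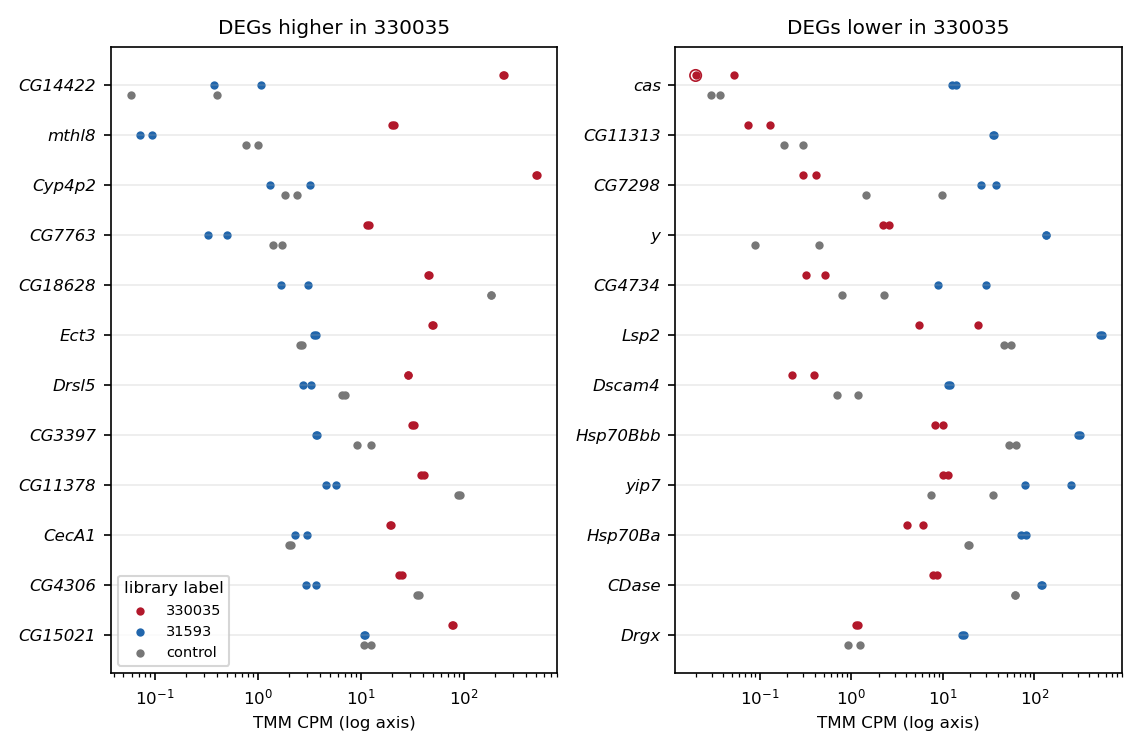
Level of the 12 largest rises (left) and 12 largest falls (right) in each library, in TMM CPM (log x axis), with red points for the VDRC330035-labelled libraries, blue for the 31593-labelled libraries and grey for control. A ringed point at the left edge stands for 0 counts; CG14422 and Cyp4p2 are high in the VDRC330035-labelled libraries alone, and cas, CG11313 and y in the 31593-labelled libraries alone.

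Several abundant genes outside the 12 largest in each direction were named after their values were seen; Arc1 among them was called but was not a DEG. AdoR, the adenosine receptor, had 68.1 and 70.5 CPM in the VDRC330035-labelled libraries, against 528.1 and 524.7 CPM in the 31593-labelled libraries and 654.3 and 640.1 CPM in control. dop, a protein kinase, had 298.4 and 303.8 CPM, against 1731 and 1741 CPM, with 2765 and 2714 CPM in control. For both genes the VDRC330035-labelled libraries were the lowest, and the 31593-labelled libraries also lay below control. tobi, an alpha-glucosidase controlled by insulin and glucagon-like signals, had 100.5 and 99.5 CPM against 583.0 and 586.4 CPM, and control was near the VDRC330035-labelled libraries at 170.9 and 171.6 CPM. vir-1, a gene induced by virus infection, had 2945 and 2981 CPM against 621.8 and 617.5 CPM, and both lines were above control at 336.8 and 338.7 CPM. Arc1, which encodes a capsid-forming protein, had 13725 and 13978 CPM against 5850 and 5909 CPM, with 1918 and 1888 CPM in control.

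Across the 7 steps of hydrocarbon synthesis 30 of 60 genes were lower and 16 higher in the VDRC330035-labelled libraries under TMM, whereas with library size alone 24 were lower and 31 higher. Over all genes tested 25.1% were lower and 26.6% higher under TMM, so the share of higher genes in the pathway was near that of all genes. Cyp4g1, the terminal enzyme, had 18017 and 17960 CPM in the VDRC330035-labelled libraries, against 135913 and 132982 CPM in the 31593-labelled libraries and 106465 and 106662 CPM in control. It was 7.47-fold lower (-2.90 on the log2 scale, SE 0.043), with an adjusted p of 7.9e-09, and the 31593-labelled libraries lay above control. Cyp4g1 lies on X at 467057 to 469335 and, like y, overlaps CG32816 in the annotation; whether the counting used strand is not given in the sources used here. Its partner Cpr did not pass the test (0.0061 on the log2 scale, adjusted p = 0.821), with 4794 and 4759 CPM against 4771 and 4741 CPM; with library size alone Cpr was higher by 0.38. Cyt-b5, which passes electrons to desaturases, was lower, with a log2 fold change of -0.91. Of the 4 genes in this last step 2 were lower and none was higher.

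In fatty acid synthesis 7 of 10 genes were lower and 3 higher under TMM, and 5 were lower and 5 higher with library size alone. Their median was -0.39 on the log2 scale, beside 0.0185 for all genes, and -0.015 with library size alone. ACC, which makes malonyl-CoA, had 1215 and 1200 CPM, against 2353 and 2341 CPM, with control between at 1825 and 1785 CPM. FASN3, an oenocyte fatty acid synthase, had 1515 and 1483 CPM in the VDRC330035-labelled libraries and 2894 and 2796 CPM in the 31593-labelled libraries, and both lines exceeded the 628.1 and 627.3 CPM of control. FASN1 and FASN2 were lower, with log2 fold changes of -0.55 and -0.59, and ATPCL, which supplies cytosolic acetyl-CoA, was at -0.48. The higher genes under TMM were the regulator SREBP (0.31) and its proteases S1P and S2P.

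Among the elongases clustered around eloF on 3R, 3 of 5 were lower and 1 higher. CG16904 had 499.7 and 500.3 CPM, against 1657 and 1610 CPM, and CG9458 had 168.1 and 170.6 CPM, against 397.7 and 398.2 CPM, with control between the lines for both. eloF itself, known for female long-chain hydrocarbons, went the other way at 25.4 and 26.1 CPM against 17.6 and 17.8 CPM. Of 13 other elongases 5 were lower under TMM, led by CG6660 (-1.15) and CG18609 (-0.82), and 2 were higher, CG33110 and CG17821, whereas with library size alone 3 were lower and 9 higher. CG17821, which lies beside CG18609 on 2R, had a log2 fold change of 1.47. In the elongation cycle kar was lower, at -0.45 and Hacd2, a 3-hydroxyacyl-CoA dehydratase, higher by 0.95; kar was not called with library size alone.

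Of 9 desaturases 4 were lower and 2 higher under TMM, against 3 lower and 4 higher with library size alone. Desat1, the main delta-9 desaturase, had 2808 and 2816 CPM, against 4123 and 4030 CPM, and 3828 and 3824 CPM in control. Fad2, a desaturase of female diene synthesis, was lower, with a log2 fold change of -2.48 from a low level, 1.88 and 1.96 CPM against 11.0 and 10.4 CPM, and was highest in control at 20.6 and 19.9 CPM.

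The fatty acyl-CoA reductases moved in both directions, with 8 of 15 lower and 6 higher. CG14893 and Sgp were DEGs, at log2 fold changes of -2.59 and -2.08. Sgp had 535.3 and 536.4 CPM in the VDRC330035-labelled libraries, against 2286 and 2250 CPM in the 31593-labelled libraries and 1191 and 1211 CPM in control. CG10096, CG17560 and FarO were lower, at -1.96, -1.63 and -1.48, and in each of these the 31593-labelled libraries were above control and the VDRC330035-labelled libraries below it. CG8303 and CG5065, neighbours on 2R, were higher by 1.74 and 1.26. The directions of the genes named in this step and of Cyp4g1 were kept with library size alone.

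**Figure D3:**
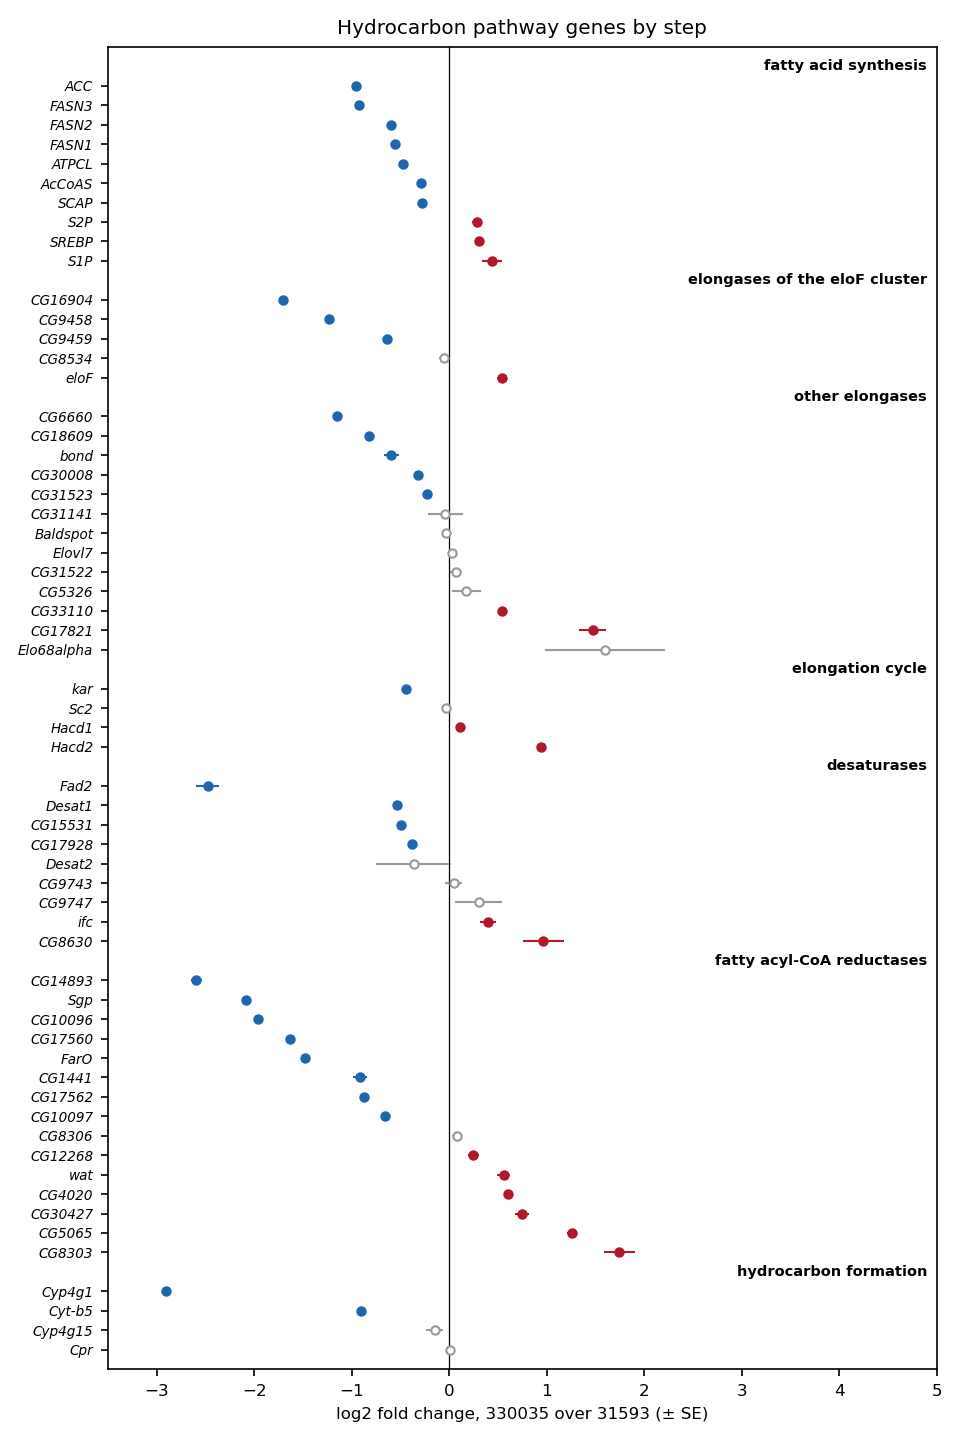
Log2 fold change, VDRC330035 over 31593, with its standard error (x axis) for genes of the hydrocarbon pathway, grouped by step from fatty acid synthesis at the top to hydrocarbon formation at the bottom. Filled red points were higher and filled blue points lower at an adjusted p under 0.05, and open grey points did not pass; Cyp4g1 at -2.90 and CG14893 at -2.59 are the lowest.

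Among transcription factors of oenocyte identity, vvl (-0.91), salm (-0.79), salr (-0.75) and svp (-0.58) were lower and abd-A (0.82) was higher, of 7 tested. With library size alone 4 of these factors were lower and 3 higher. Hnf4, a nuclear receptor for lipid metabolism, had 271.6 and 272.8 CPM in the VDRC330035-labelled libraries, against 536.3 and 529.3 CPM in the 31593-labelled libraries and 457.6 and 451.7 CPM in control. Of 14 nuclear receptors 8 were lower and 3 higher, with a median of -0.22 that became 0.15 with library size alone. Hr4 was the lowest at -1.19, and Hr38 and Hr39 were the highest at 1.16 and 1.09. Among hormone genes, sad, an ecdysteroid hydroxylase, had 635.5 and 648.7 CPM, against 1789 and 1772 CPM, while control held 5464 and 5408 CPM, so both lines were below control. Juvenile hormone genes were lower in 5 of 7 and higher in none under TMM (3 lower and 2 higher with library size alone), with Jheh3, an epoxide hydrolase, at -1.30.

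Insulin pathway genes were higher in 6 of 12 and lower in 4 under TMM, and higher in 11 and lower in 1 with library size alone. ImpL2, a secreted inhibitor of insulin-like peptides, had 1249 and 1226 CPM, against 504.8 and 492.0 CPM, and control was near the VDRC330035-labelled libraries at 1546 and 1538 CPM. Thor, the 4E-BP translational repressor, was higher by 0.99, and Ilp6, an insulin-like peptide, lower, at -0.70. In lipid storage and transport, 6 of 14 genes were higher and 4 lower under TMM, against 11 higher and 3 lower with library size alone: LpR1, a lipophorin receptor, was lower, at -1.60, and Apoltp, a lipid transfer particle protein, was higher by 0.92.

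Heat shock genes were lower in the VDRC330035-labelled libraries as a group. Of 20 tested 16 were lower and 2 higher, 9 were DEGs, and the median log2 fold change was -1.80 (-1.43 with library size alone). The 6 Hsp70 genes are nearly identical copies among which reads can be split in uncertain ways, so their sum was taken: 647.2 and 645.6 CPM in the VDRC330035-labelled libraries, against 3416 and 3451 CPM in the 31593-labelled libraries. Control lay between at 1688 and 1698 CPM. The log2 difference of the sums was -2.41, and Hsp70Bbb and Hsp70Ba, the copies with the largest differences, were at -5.05 and -3.88. Among small heat shock proteins Hsp27 had 76.6 and 73.3 CPM, against 452.3 and 431.3 CPM, and Hsp26 155.0 and 155.0 CPM, against 514.3 and 498.7 CPM. The constitutive Hsp83, the fly Hsp90, was lower, at -0.62. Hsp60A, the mitochondrial chaperonin, and Hsp22 were higher by 0.60 and 0.43. All flies spent the week before dissection at 29°C.

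Of 19 genes of the endoplasmic reticulum stress list 9 were higher and 8 lower under TMM, with a median of 0.0038, and 15 were higher and 3 lower with library size alone, with a median of 0.37. Sec61alpha and Sec61beta, of the translocation channel, were lower, at -1.66 and -1.08, while the luminal protein CaBP1 was higher by 1.22. Sil1, an exchange factor for the luminal chaperone BiP that was named after its values were seen, had 200.4 and 201.6 CPM, against 32.6 and 33.2 CPM, with 73.9 and 73.9 CPM in control.

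Antimicrobial peptide genes were higher. Of 19 tested, 16 were higher and none was lower. Their median was 1.60 on the log2 scale (1.97 with library size alone), and 4 of them were DEGs. CecA1 had 19.5 and 19.3 CPM in the VDRC330035-labelled libraries, against 2.31 and 3.01 CPM in the 31593-labelled libraries, with 2.12 and 2.005 CPM in control. CecA2, its neighbour on 3R, had 11.1 and 11.1 CPM, against 1.37 and 1.79 CPM. Dro, encoding drosocin, was higher by 2.53, and Listericin by 2.05. DptA, encoding diptericin, had 39.4 and 38.0 CPM against 3.61 and 11.9 CPM, and its 31593-labelled replicates differed more than most. Drs, encoding drosomycin, was higher by 1.09. AttD had 2.22 and 1.98 CPM against 1.70 and 9.46 CPM, and it was not called. Among 15 genes of immune recognition 7 were higher and 5 lower (9 and 3 with library size alone): PGRP-LB, an amidase that damps the response to peptidoglycan, was lower, at -2.14 as was the receptor PGRP-LC, at -1.08, while PGRP-SA, a recognition protein of the Toll pathway, was higher by 1.02.

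**Figure D4:**
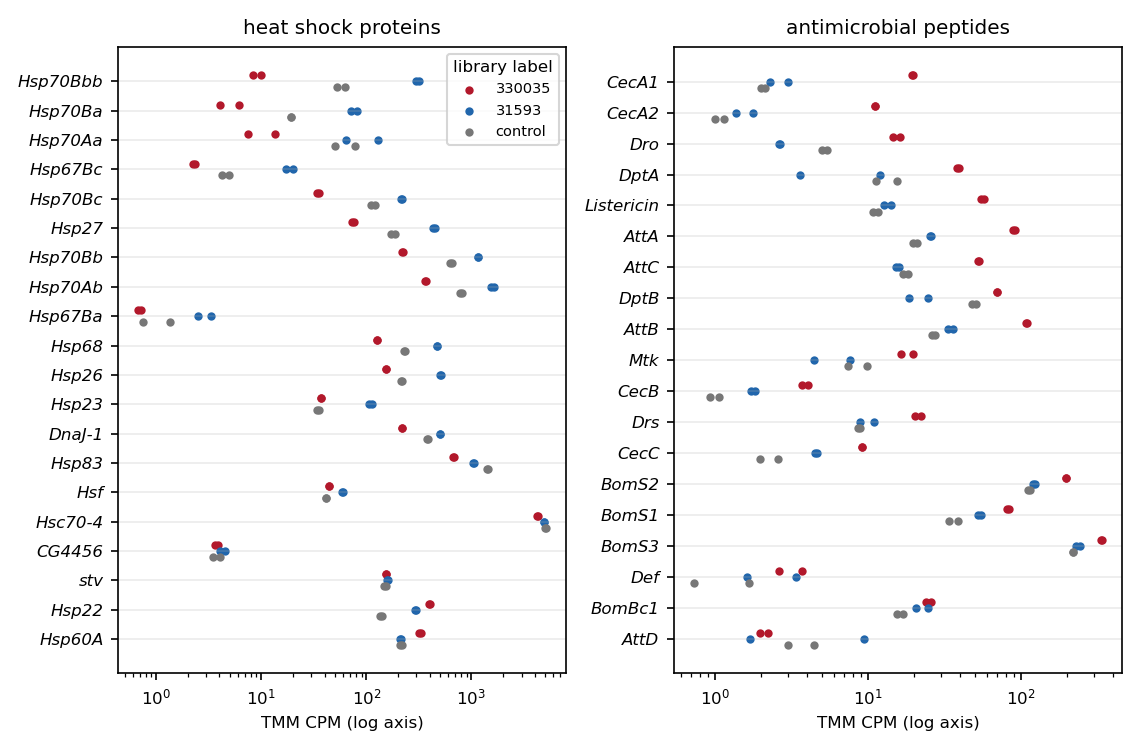
Level of 20 heat shock genes (left) and 19 antimicrobial peptide genes (right) in each library, in TMM CPM (log x axis), with red points for the VDRC330035-labelled, blue for the 31593-labelled and grey for the control libraries. For most heat shock genes the VDRC330035-labelled libraries are lower than the 31593-labelled ones, and for most antimicrobial peptide genes they are higher.

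Of 79 cytochrome P450 genes 18 were higher and 40 lower under TMM, with 7 DEGs and a median of -0.23. With library size alone 37 were higher and 22 lower, with a median of 0.14. Beside Cyp4p2 the higher DEGs were Cyp4d21 (2.41) and Cyp4d1 (2.04), and Cyp4p1 and Cyp4p3, which lie next to Cyp4p2 on 2R, were higher by 1.42 and 1.17. Lower DEGs included Cyp12d1-p (-2.06) and Cyp6a23 (-2.05). Glutathione S-transferases were higher in 15 of 29 and lower in 10, with a median of 0.40, and with library size alone higher in 21 and lower in 3, with a median of 0.77. GstE1 had 242.1 and 252.3 CPM, against 59.3 and 58.4 CPM, with 82.1 and 84.7 CPM in control, and GstD10 had 16.6 and 15.8 CPM against 2.89 and 3.15 CPM. UDP-glycosyltransferases were lower in 13 of 22 and higher in 2, or lower in 8 and higher in 6 with library size alone.

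Among genes of protein turnover and energy supply the differences were small and many were of the size of the scaling shift. Proteasome subunits were lower in 32 of 48 and higher in 1 under TMM, with a median of -0.41. With library size alone 15 were lower and 10 higher, with a median of -0.035. Prosalpha7, a subunit of the core particle, had 269.9 and 278.7 CPM against 572.7 and 555.2 CPM. Cytosolic ribosomal proteins were lower in 84 of 92 under TMM, with a median of -0.26, and with library size alone 66 were higher and 5 lower, with a median of 0.11. Oxidative phosphorylation genes were lower in 47 of 84 and higher in 6 under TMM and higher in 42 and lower in 5 with library size alone, the median moving to 0.14 in place of -0.23. SdhD, of respiratory complex II, was higher under both, with a TMM log2 fold change of 1.01. Mitochondrial ribosomal proteins were higher in 20 of 73 and lower in 7 under TMM, and higher in 62 and lower in 1 with library size alone. Their share of higher genes under TMM was near the 26.6% of all genes tested.

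**Figure D5:**
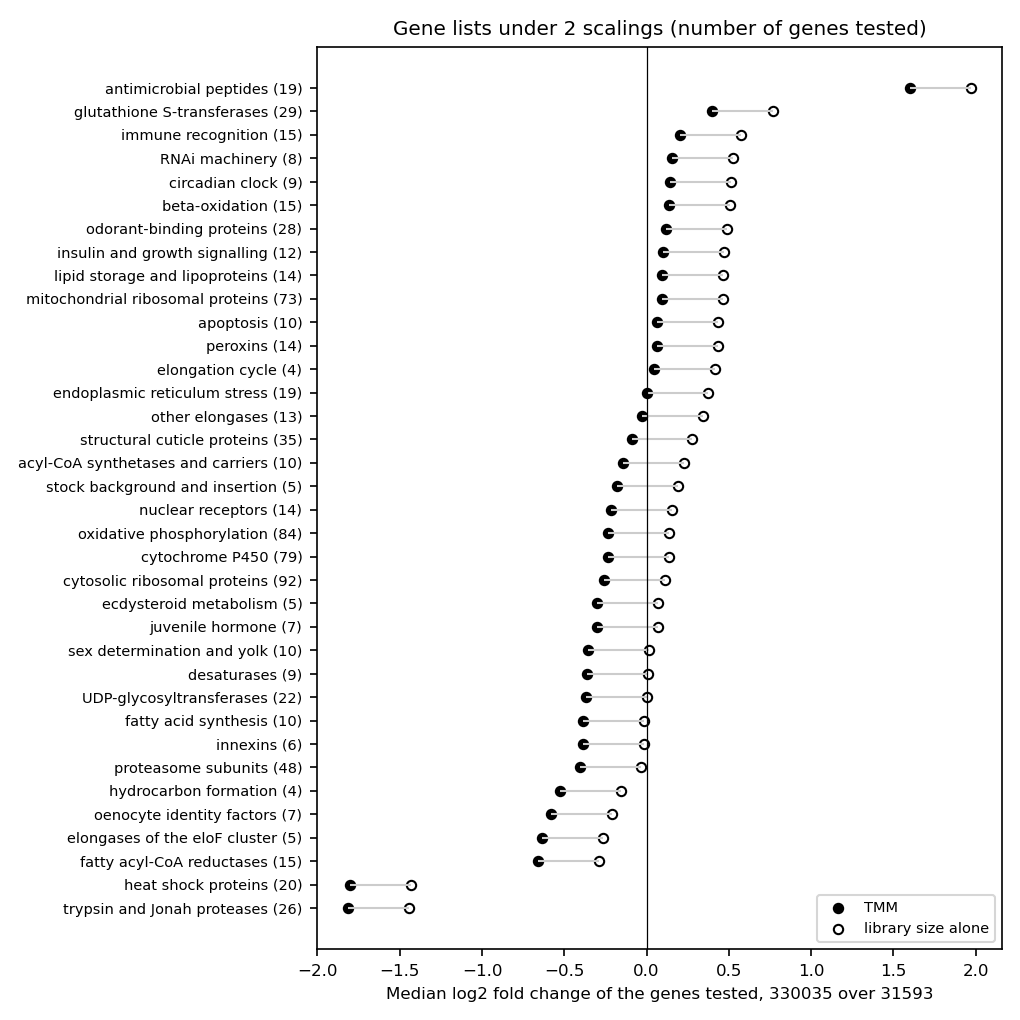
Median log2 fold change, VDRC330035 over 31593 (x axis), of each gene list under TMM (filled points) and under library size alone (open points), with the number of genes tested in brackets. Antimicrobial peptides stay above 0 and heat shock proteins below 0 under both scalings; of 36 lists, 24 keep the sign of their median.

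Clock genes were higher in 5 of 9 and lower in 3. Clk, which activates the clock loop, had 22.4 and 22.97 CPM, against 109.1 and 106.0 CPM, with 50.4 and 48.8 CPM in control, and vri, which represses Clk, had 328.4 and 340.0 CPM against 152.3 and 143.9 CPM. cyc and Pdfr were lower, at -0.68 and -0.82. The hour of dissection was not given in the sources used here. Among 28 odorant-binding proteins 10 were higher and 9 lower (13 and 5 with library size alone), and Obp56d and Obp56a, neighbours on 2R, were DEGs at 2.58 and 2.34. Of 35 structural cuticle proteins 11 were higher and 12 lower under TMM, and 12 were higher and 7 lower with library size alone, with Ccp84Ag at 65.2 and 68.5 CPM in the VDRC330035-labelled libraries and 12.4 and 12.0 CPM in the 31593-labelled libraries, and higher than both in control.

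Some neighbouring genes were DEGs together. There were 18 pairs of DEGs with no other tested gene starting between them, 16 in the same direction, and 34 of the 188 DEGs took part in such a pair. The share of such pairs among all neighbouring genes tested was not taken. The pairs include Hsp70 copies, among which reads can be split in uncertain ways, and hig with Cyp4p2, which lies within its span. Beside the Hsp70, cecropin and odorant-binding pairs, Chi, a LIM-domain cofactor, and MAN1, of the inner nuclear membrane, end and start 31 bases apart on 2R and were lower, at -2.32 and -2.05. CG9776 and Skp2, an F-box protein, lie 808 bases apart on 3R and were lower, at -2.69 and -2.04. CG9776 had 169.7 and 174.8 CPM in the VDRC330035-labelled libraries, against 1120 and 1103 CPM in the 31593-labelled libraries and 760.8 and 750.6 CPM in control. Outside these pairs, the lipid phosphate phosphatase gene laza on 3L had 256.4 and 271.8 CPM, against 1710 and 1696 CPM. CG11425, in the same region but not its neighbour among the genes tested, was higher by 2.05. The genes laza and CG11425, like the Chi and CG9776 pairs, were named after their values were seen.

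Of 5 listed genes of stock markers and landing sites, 2 were higher and 3 lower under TMM, and y differed the most among them. Over all genes tested 51.7% were called. Beside y, the eye pigment transporter w had 21.7 and 23.2 CPM in the VDRC330035-labelled libraries, against 39.7 and 39.3 CPM in the 31593-labelled libraries and 135.1 and 133.0 CPM in control. v, an enzyme of brown eye pigment synthesis, was lower, at -0.18 under TMM and higher by 0.19 with library size alone. Msp300, at the attP40 site on 2L, was higher by 0.28. The differences of v and Msp300 were smaller than the 0.37 by which TMM moved log2 fold changes. tio, at another landing site of RNAi libraries that holds neither of these hairpins, was higher by 1.05. In the RNA interference machinery 3 of 8 genes were higher and 2 lower under TMM, and 8 were higher and none lower with library size alone: AGO2 had 178.1 and 175.5 CPM, against 105.3 and 108.2 CPM, and Dcr-2 was higher by 0.33.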

How the data were processed

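Polyadenylated RNA from dissected male oenocytes was sequenced by the authors. Reads were trimmed with fastp 0.22.0, mapped with Bowtie2 to dme6 and quantified with RSEM 1.2.31, per the labels' processing notes and the study's methods. The annotation version is not given in the sources used here. Expected counts as deposited are RSEM's estimated counts per gene, made by the authors without normalization. The deposited TPM are the authors' RSEM abundances per transcript length. The last deposited table holds TPM multiplied by 1 TMM factor per library, so its scores are comparable between libraries. Expected counts were rounded to whole numbers.

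The 2 libraries labelled VDRC330035 were compared with the 2 labelled 31593 in edgeR 4.0.16 (R 4.3.3): filterByExpr (minimum count 10, minimum total 15), TMM, glmQLFit and glmQLFTest, Benjamini-Hochberg adjustment over all 11732 genes tested, and log2 fold changes of VDRC330035 over 31593. Symbols and positions came from BDGP6.54, which held 13983 of 13986 identifiers. Levels in control were scaled by 1 TMM over the 6 libraries and entered no test but the alternative with a dispersion from all 10 libraries. Named genes were fru, members of lists, and, among DEGs with at least 10 CPM in the higher line and at least a 2-fold gap between the lines' nearest libraries, the 12 largest rises and the 12 largest falls; others are marked. Lists were described by counts and medians. The members, lists and rules were chosen with earlier results of these data known. The test was checked on simulated counts with a fixed dispersion and equal numbers of rises and falls. That check does not bear on the choice of scaling.

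Alternatives were DESeq2 1.42.0, RLE factors, library size alone, library size without Cyp4g1 (added after the data were seen), filters of 1 count in all and 10 counts in every library, a dispersion from all 10 libraries, edgeR's exact test, a replicate block, limma 3.58.1 on the authors' TMM values plus 1 or 0.1, and each library left out. The 4 other libraries of the series served that shared dispersion only. Depth, between 24092148 and 46840805 counts per library, sets the precision of low genes.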

Additional observations from a re-analysis of the deposited data

How the results depend on the processing

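The 6069 calls stayed within 1.5 times under every alternative, between 4507 and 6336 with a library left out. The number of DEGs, 188 in the test as designed, was 95 with limma on TMM values plus 1, and between 119 and 381 with a library left out, the lone library of a line then being assumed to vary like the others; the cause was not tested. fru had a log2 fold change of -0.086 (adjusted p = 0.192) with library size alone, and lay between -0.49 and -0.45 with a library left out. With limma on the authors' length-scaled values it was -0.85 (plus 1) and -0.997 (plus 0.1). The share of DEGs whose control level was nearer to the 31593-labelled libraries was between 37.8% and 66.7% with a library left out, and v reversed to 0.19 with library size alone and 0.040 with Cyp4g1 left out. List medians kept their sign in 24 of 36 lists with library size alone, in 30 with Cyp4g1 also left out and in at least 32 under the other alternatives. The medians of cytosolic ribosomal proteins (0.11), oxidative phosphorylation (0.14) and cytochrome P450 genes (0.14) reversed with library size alone. The replicate numbers did not pair the libraries (correlation of deviations -0.0039 over 11732 genes), and the replicate block gave 6104 calls and 223 DEGs. Genes under 10 CPM, 92 of the 188 DEGs, are the ones that depth limits most.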
